A study of Mus musculus with 60 samples.

Results

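The genes examined here were 8 neuronal activity genes of the mouse striatum, Arc, Npas4, Nr4a1, Nr4a2, Nr4a3, Btg2, Ier2 and Nptx2, taken as every probe that the platform's annotation assigns to them. They were represented by 12 probes of the 45281 on the array, and were 8 of the 19057 genes that it names. Npas4 and Nptx2 had 2 probes each, Nr4a3 had 3 and each of the others had 1. The mice were male C57BL/6J, 8 to 10 weeks old, and were given 1 intraperitoneal injection. The doses were 20 mg/kg of ketamine, 15 mg/kg of memantine and 5 mg/kg of phencyclidine (PCP), with saline as the vehicle control and with naive mice that were not injected as a further control. Striatum was taken at 1, 2, 4 and 8 h. Ketamine, memantine and PCP are blockers of the NMDA type of glutamate receptor. Ketamine and PCP are arylcyclohexylamines and memantine is an aminoadamantane. Each of the 20 groups held 3 arrays, and each array held RNA of the striatum pooled from 2 mice. A BeadChip below is a block of 6 successive arrays in the sample order. The sample titles and source names do not give the BeadChip, so comparisons within a BeadChip rest on that order. Signals are log2 values after background correction and quantile normalisation, a change is a difference between group means with its standard error (SE), and a change passed the test when its adjusted p was under 0.05.

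Neurons transcribe a set of immediate early genes within minutes of synaptic activity, without new protein synthesis, when calcium entry and second messengers activate factors such as CREB and SRF that already sit on their promoters. Arc, which encodes a postsynaptic protein that regulates AMPA receptor trafficking, and Npas4, which encodes a transcription factor that responds selectively to calcium entry, are widely used as marks of recently active neurons. Nr4a1, Nr4a2 and Nr4a3 encode orphan nuclear receptors, Btg2 an antiproliferative co-regulator, Ier2 an immediate early nuclear protein, and Nptx2 a secreted pentraxin that gathers AMPA receptors at excitatory synapses.

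CREB binds the cAMP response element (CRE), whose palindrome is TGACGTCA and whose core is TGACG on one strand and CGTCA on the other. In the RefSeq annotation (GRCm38.p6) the genes lie at chr15:74669081-74672570 (Arc), chr19:4984353-5003439 (Npas4), chr15:101253902-101274795 (Nr4a1), chr2:57106830-57124003 (Nr4a2), chr4:48045078-48086447 (Nr4a3), chr1:134074865-134079155 (Btg2), chr8:84661331-84662852 (Ier2), and chr5:144545887-144557478 (Nptx2). Promoter windows from RefSeq (GRCm38.p6, 250 bases before to 50 bases after the annotated start) were matched for 5 of the 8 genes. For Npas4, Nr4a1 and Nr4a3 the start that this table uses lies inside the gene span given above, which begins further upstream. Arc, Ier2 and Nptx2 had no match. The windows are shown because all 5 held the core on either strand, against 20.8% of the 32851 windows of the same length in that table. The core contains the letters CG, and these background windows were not matched for base composition, so the shares are no measure of enrichment. Npas4 and Btg2 held 2 cores (5.01% of all windows held at least 2), Nr4a1, Nr4a2 and Nr4a3 held 4 each (0.23% held at least 4), and the palindrome, which counts as 2 overlapping cores, was found in Btg2 alone among them (1.79% of windows). Each stretch below runs 5′ to 3′ on the gene's strand from 10 bases before the first core to 10 bases after the last, with the core or palindrome in capitals. The stretches lie at chr19:4990126-4990160, minus strand (Npas4), chr15:101266603-101266820, plus strand (Nr4a1), chr2:57124100-57124213, minus strand (Nr4a2), chr4:48045064-48045172, plus strand (Nr4a3) and chr1:134079304-134079331, minus strand (Btg2).
Npas4: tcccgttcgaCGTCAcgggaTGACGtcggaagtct
Nr4a1: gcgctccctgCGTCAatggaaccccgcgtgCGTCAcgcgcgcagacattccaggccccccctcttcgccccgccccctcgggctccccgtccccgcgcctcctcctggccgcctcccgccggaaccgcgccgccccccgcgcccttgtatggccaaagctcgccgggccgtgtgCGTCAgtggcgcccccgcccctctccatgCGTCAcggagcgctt
Nr4a2: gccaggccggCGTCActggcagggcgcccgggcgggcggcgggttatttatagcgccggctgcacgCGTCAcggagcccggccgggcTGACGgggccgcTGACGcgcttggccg
Nr4a3: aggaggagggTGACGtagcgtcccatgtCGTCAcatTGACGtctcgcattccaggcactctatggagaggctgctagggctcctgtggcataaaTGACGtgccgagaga
Btg2: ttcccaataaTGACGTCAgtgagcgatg
A match of letters is a description of the window, and binding was not measured.

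The striatal label was checked on 20 measured markers of striatal projection neurons, of which 19 stood above the 95th percentile of the probes for odorant and vomeronasal receptors (1504 probes, genes not known for expression in striatum, used in place of the absent control probes), with Adcy5 below it. Of the 15 markers of cortical pyramidal neurons, 13 stood above that level as well. The median signal of an array was between 166.9 and 646.1 intensity units before normalisation. With 3 arrays in a group, precision is set by that number. The arrays with the lowest mean correlation with the others were saline 4 h replicate 3 (0.934), saline 4 h replicate 1 (0.940) and saline 1 h replicate 3 (0.943), against a median of 0.964 over all 60 arrays. Without these 3 arrays, 0 of the 144 tests of the 12 probes in drug minus saline passed, as with them.

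The first question was which of the genes gave a signal clear of background in this tissue. The odorant and vomeronasal receptor probes had a median of 6.72 and ran from 6.34 at their 5th percentile to 7.20 at their 95th. The Arc probe averaged 9.52 over the 60 arrays, its lowest array at 8.50 and its highest at 10.50. The main Npas4 probe averaged 8.38 (7.28 to 9.10), that of Nr4a2 averaged 8.30 (7.40 to 8.97), and that of Nptx2 averaged 9.14 (8.32 to 10.50). These 4 probes averaged above every one of the receptor probes. By contrast, Nr4a1 averaged 6.40, the main Nr4a3 probe 6.86, Btg2 6.67 and Ier2 6.73, all inside the 5th to 95th percentile of the receptor probes. The remaining probes of Nr4a3 (6.71 and 6.69) and Nptx2 (6.68) were also inside it, as was the second Npas4 probe at 7.14. All 12 probes passed the filter on low values. The tests on Nr4a1, Nr4a3, Btg2 and Ier2 thus rest on signals that could not be told apart from those of the receptor probes.

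**Figure D1:**
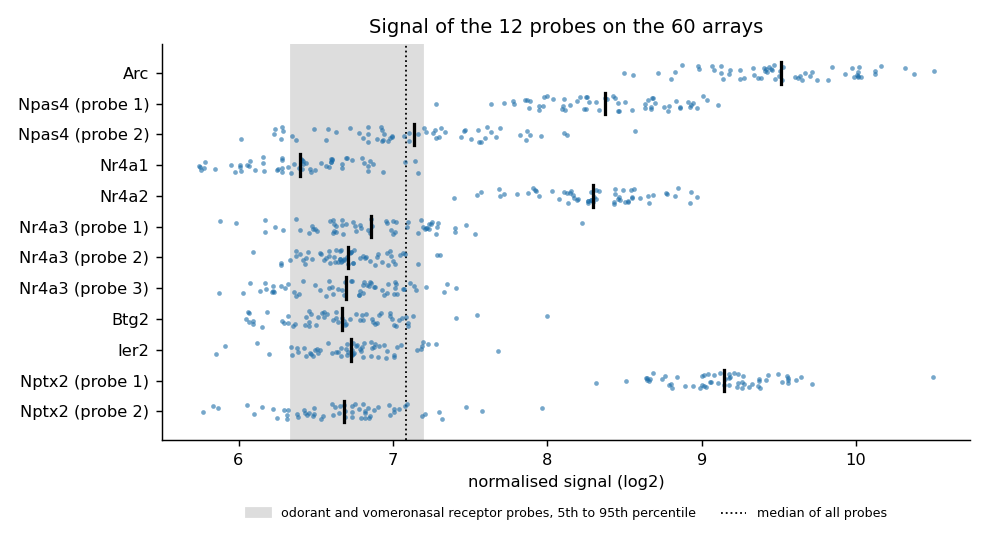
Normalised log2 signal (horizontal axis) of the 12 probes on the 60 arrays (points), with the mean over arrays as a black bar, the 5th to 95th percentile of the odorant and vomeronasal receptor probes in grey and the median of all probes as a dotted line. Arc, Npas4 (probe 1), Nr4a2 and Nptx2 (probe 1) have means to the right of the grey band, which runs from 6.34 to 7.20, and the other 8 means lie within it.

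None of the 12 probes passed the test in any of the 12 comparisons of a drug with saline at the same time (limma, 0 of 144 tests). Over all probes, 0.0678% of the tests passed. By comparison, this background was 0.714% for memantine, 0.0678% for ketamine and 0.0226% for PCP at 4 h, 0.00452% for ketamine and 0.00226% for memantine at 2 h, 0.00226% for PCP at 1 h, and 0 in the other 6 comparisons. At an unadjusted p under 0.05 there were 11 of the 144 tests (7.64%), against 6.71% over all probes. Averaged over the 4 times, 0 of 12 probes passed in the ketamine, memantine and PCP arrays against saline, with 4 of 36 tests at an unadjusted p under 0.05 (over all probes 0.0241% of the tests passed and 8.61% reached that level). This background was 0.0181% for ketamine, 0.0543% for memantine and 0 for PCP. In a joint F-test over the 12 comparisons 0 of 12 probes passed, with 2 at an unadjusted p under 0.05. Over all probes 0.0136% passed that F-test and 6.08% had an unadjusted p under 0.05. The 12 comparisons share the saline arrays of each time. The 95% interval of a change at a single time reached 0.55 on either side for Arc, 0.57 for Npas4, 0.62 for Nr4a2 and 0.59 for Nptx2.

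**Figure D2:**
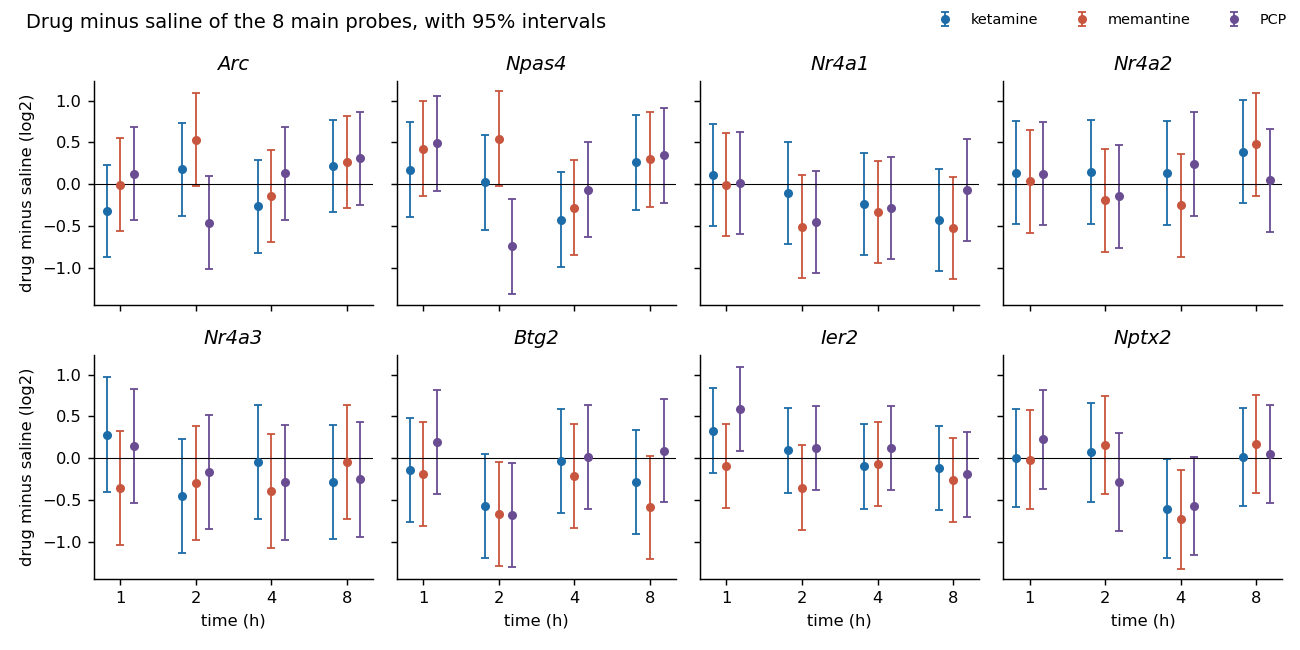
Drug minus saline difference (log2, vertical axis) by time after injection (h, horizontal axis) for the main probe of each of the 8 genes, with the estimate as a point, its 95% interval as a bar, and ketamine, memantine and PCP in separate colours. No difference passed the test, and the lowest points are Npas4 with PCP at 2 h (-0.74) and Nptx2 with memantine at 4 h (-0.73).

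Averaged over the 4 times, the Arc level differed from saline by -0.04 (SE 0.14) in ketamine arrays, 0.16 (SE 0.14) in memantine arrays and 0.03 (SE 0.14) in PCP arrays. The 95% intervals ran from -0.32 to 0.23 for ketamine, from -0.11 to 0.44 for memantine and from -0.25 to 0.30 for PCP. For Npas4 the differences were 0.01 (95% interval -0.27 to 0.29) in ketamine arrays, 0.25 (-0.04 to 0.53) in memantine arrays and 0.01 (-0.27 to 0.29) in PCP arrays. The Npas4 difference under memantine had an adjusted p of 0.602. For Nr4a2, which beside its induction by activity is a lasting marker of deep cortical and claustral neurons, the differences were 0.20 (-0.10 to 0.51) in ketamine arrays, 0.02 (-0.29 to 0.33) in memantine arrays and 0.07 (-0.24 to 0.38) in PCP arrays. For Nptx2 they were -0.13 (-0.42 to 0.17), -0.10 (-0.40 to 0.19) and -0.14 (-0.44 to 0.15) in ketamine, memantine and PCP arrays. Among the probes near background, Btg2 gave -0.41 (SE 0.15, adjusted p 0.406) and Nr4a1 -0.34 (SE 0.15, adjusted p 0.475) in memantine arrays.

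The lowest and highest group means of both Arc and Npas4 belonged to PCP, the highest at 1 h and the lowest at 2 h. At 2 h, Arc signals were 9.65, 9.14 and 9.48 in ketamine arrays, 9.61, 9.70 and 10.01 in memantine arrays, 9.13, 8.72 and 8.50 in PCP arrays, 9.45, 9.19 and 9.08 in saline arrays, and 9.44, 9.85 and 10.02 in naive arrays. The PCP arrays were all below the ketamine, memantine and naive arrays, and the highest of them was above the lowest saline array. Npas4 signals at 2 h were 8.55, 8.33 and 8.11 in ketamine arrays, 8.93, 8.76 and 8.86 in memantine arrays, 7.63, 7.28 and 7.78 in PCP arrays, 8.19, 8.83 and 7.89 in saline arrays, and 8.38, 8.69 and 7.98 in naive arrays. All 3 PCP arrays were below every other array of that time on the main Npas4 probe. On the second Npas4 probe they were not low, and PCP minus saline at 2 h was 0.58. These separations were picked out after the values had been seen. The share of all probes that separate in this way was not counted for either gene, so how common it is cannot be said. PCP minus saline at 2 h was -0.74 for Npas4 (SE 0.28, adjusted p 0.892) and -0.46 for Arc (SE 0.27, adjusted p 0.980), and on the 1 BeadChip that held both groups the difference was -0.41 for Npas4 and -0.95 for Arc.

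The memantine arrays at 2 h had higher means than the saline arrays. Memantine minus saline at 2 h was 0.54 for Npas4 (SE 0.28) and 0.53 for Arc (SE 0.27), with an adjusted p of 1 for each. Set beside naive arrays, the Arc means at 2 h were 9.77 in memantine arrays and 9.77 in naive arrays, and the Npas4 means were 8.85 in memantine arrays and 8.35 in naive arrays. Set against each other at 2 h, memantine exceeded PCP by 1.28 for Npas4 (SE 0.28, 95% interval 0.72 to 1.85, 2.44-fold) and by 0.99 for Arc (SE 0.27, 0.44 to 1.54, 1.99-fold). With an unadjusted p of 3.65e-05, Npas4 was the first of the 44236 probes in that comparison and Arc, at 0.00075, the 14th by rank. Neither passed the test (adjusted p 1 for each), and 0 of the 144 tests of the 12 probes between drugs did (10 at an unadjusted p under 0.05; over all probes 0.000942% of the tests passed, all of them in ketamine minus memantine at 4 h with 0.0113%, and 4.27% reached that level). Ketamine minus PCP at 2 h was 0.77 for Npas4 (SE 0.28) and 0.64 for Arc (SE 0.27), both with an adjusted p of 1. Tissue marker scores at 2 h are mean log2 values relative to naive arrays. The score of 10 choroid plexus and ependyma markers was between 1.24 and 1.63 in ketamine arrays, against -0.33 to -0.07 in PCP arrays. This score was 0.62, -0.20 and -0.08 in memantine arrays and -0.39, -0.27 and 1.14 in saline arrays. The score of striatal projection neuron markers was -0.84 in ketamine replicate 2. It was -0.19 and -0.14 in the other ketamine arrays, against -0.19 to 0.12 in PCP arrays. In memantine arrays it ran from -0.17 to 0.10 and in saline arrays from -0.14 to 0.03. The part of these markers in the differences at 2 h was not tested. No BeadChip held both memantine and PCP arrays of 2 h, and with BeadChip as a block memantine minus PCP was 1.08 for Npas4 and 1.16 for Arc. These contrasts at 2 h were singled out after their values were seen.

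The second Npas4 probe did not follow the first. At 2 h it read 7.28, 6.81 and 7.59 in memantine arrays, 7.83, 8.12 and 6.94 in PCP arrays, and 7.21, 7.63 and 6.29 in saline arrays. The PCP arrays were not low on this probe, and PCP minus saline was 0.58 (SE 0.39), memantine minus PCP was -0.41 (SE 0.39), and ketamine minus PCP was -0.63 (SE 0.39). Over the 60 arrays the correlation of the Npas4 probes was 0.06. Those of the 3 Nr4a3 probes ran from -0.06 to 0.19 and that of the Nptx2 probes was 0.35. The lowest value on the second Npas4 probe was -1.22 for PCP minus saline at 4 h (SE 0.39, adjusted p 0.200), or -1.13 without the 3 saline arrays of lowest correlation (adjusted p 0.651), in a comparison where the main probe gave -0.06 (SE 0.28).

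**Figure D3:**
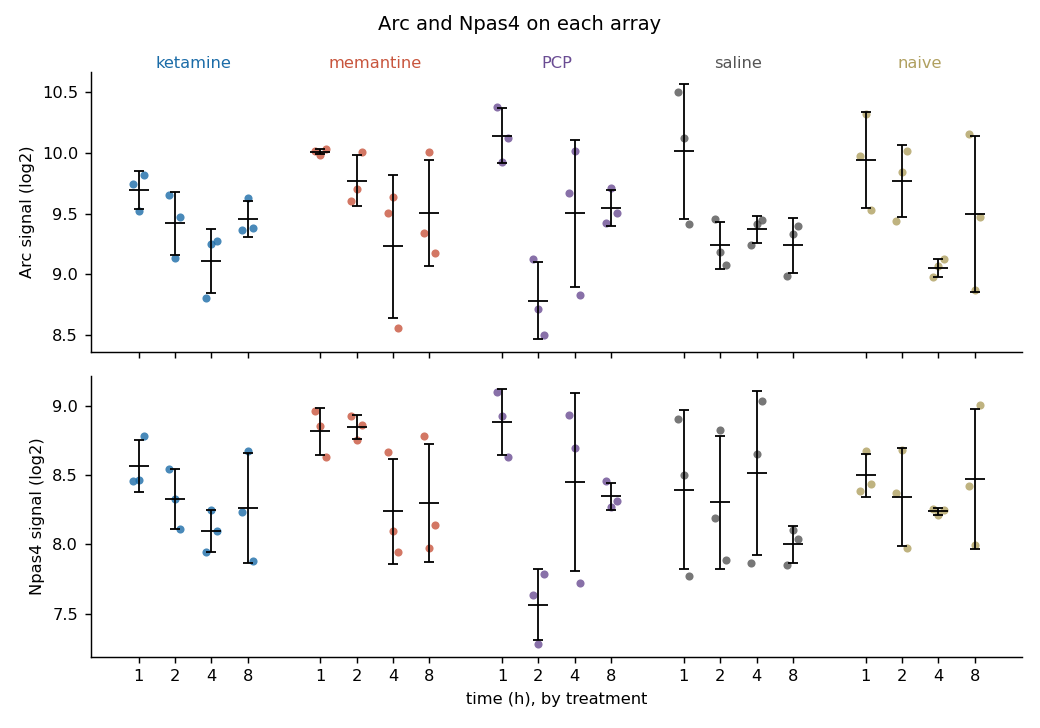
Normalised log2 signal of Arc (upper panel) and the main Npas4 probe (lower panel) on each array (points), with group mean and SD as bars, by treatment and by time in h along the horizontal axis. The PCP arrays at 2 h hold the lowest group mean of each gene (8.78 for Arc and 7.56 for Npas4) and the PCP arrays at 1 h the highest (10.14 and 8.89).

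In a test of time over all treatments Arc was the only one of these genes to pass, and its difference had the same sign under all 5 treatments. At 1 h, Arc signals were 9.75, 9.52 and 9.82 in ketamine arrays, 10.01, 9.99 and 10.03 in memantine arrays, 10.38, 9.93 and 10.12 in PCP arrays, 10.50, 10.12 and 9.41 in saline arrays, and 9.97, 10.32 and 9.53 in naive arrays. At 4 h they were 8.80, 9.25 and 9.28 in ketamine arrays, 9.50, 9.64 and 8.55 in memantine arrays, 9.67, 10.01 and 8.83 in PCP arrays, 9.25, 9.42 and 9.45 in saline arrays, and 8.98, 9.07 and 9.12 in naive arrays. At 8 h they were 9.36, 9.63 and 9.38 in ketamine arrays, 9.34, 10.00 and 9.18 in memantine arrays, 9.43, 9.71 and 9.51 in PCP arrays, 8.98, 9.33 and 9.40 in saline arrays, and 10.16, 8.87 and 9.47 in naive arrays. All 15 arrays of 1 h were above the mean of the 45 later arrays (9.37), although in each treatment some later arrays reached the range of 1 h. The Arc level averaged 9.96 ± 0.32 at 1 h, 9.40 ± 0.44 at 2 h, 9.25 ± 0.38 at 4 h and 9.45 ± 0.34 at 8 h (SD, n = 15 arrays each). Arc changed with time over all treatments (limma F-test, adjusted p 0.00467), the 1 of the 12 probes to pass, against 0.156% of all probes. This comparison was added after the values had been seen. The level at 1 h exceeded the mean of the later times by 0.59 (SE 0.10, 1.51-fold, adjusted p 0.00132, against 0.0633% of all probes passing). Under scaling of the arrays to a common median in place of quantile normalisation the difference was 0.51 and neither test passed (adjusted p 0.642 for the F-test and 0.260 for the difference).

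A higher Arc level at 1 h than later was measured under each treatment, naive arrays included. The difference between 1 h and the later times was 0.37 in ketamine arrays, 0.51 in memantine arrays, 0.86 in PCP arrays, 0.73 in saline arrays and 0.50 in naive arrays. In the naive arrays alone the F-test over time gave an unadjusted p of 0.0138 and in the saline arrays 0.0196, and neither passed (adjusted p 1 in naive and 0.363 in saline arrays). None of the 12 probes passed in either of these tests (limma, 1 probe in naive and 2 in saline arrays at an unadjusted p under 0.05). Over all probes 0 passed in naive and 0.197% in saline arrays, and 2.23% and 10.8% had an unadjusted p under 0.05. Within each drug's own arrays none of the 12 probes passed either (0 with ketamine, 1 with memantine and 2 with PCP at an unadjusted p under 0.05), against 0.0203%, 0.0136% and 0.00452% of all probes in ketamine, memantine and PCP arrays. The shares of all probes at an unadjusted p under 0.05 were 4.01%, 5.69% and 3.56% in the same order. The test of whether the course differed between treatments gave an unadjusted p of 0.054 for Arc and 0.022 for Npas4 (adjusted p 1 for each), and it was passed by 0 of the 12 probes against 0.00452% of all probes. On each of the 10 BeadChips the mean of the 1 h arrays (1 or 2 arrays) was above the mean of the later arrays (4 or 5), by 0.37 to 0.98, while single later arrays exceeded a 1 h array on some BeadChips. The hour of collection and the time since injection run together in the injected mice and cannot be told apart there.

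Npas4 had a smaller difference of the same sign. At 1 h its signals were 8.46, 8.46 and 8.78 in ketamine arrays, 8.97, 8.86 and 8.63 in memantine arrays, 9.10, 8.93 and 8.63 in PCP arrays, 8.91, 8.50 and 7.78 in saline arrays, and 8.38, 8.67 and 8.44 in naive arrays. The ranges of the treatments overlapped at this time, with saline replicate 3 the lowest of the 15 arrays. The level at 1 h exceeded the later mean by 0.35 (SE 0.10, adjusted p 0.592), and 14 of the 15 arrays of 1 h were above that mean. Without the 3 saline arrays of lowest correlation the difference was 0.40 for Npas4 (adjusted p 0.161) and 0.65 for Arc (adjusted p 0.000471). The second probe gave -0.05. For Nr4a2 the difference was 0.06 (SE 0.11), for Nptx2 -0.02 (SE 0.11), for Nr4a3 0.23 (SE 0.12), for Ier2 0.13 (SE 0.09), for Nr4a1 0.05 (SE 0.11) and for Btg2 -0.02 (SE 0.11), none of which passed. The change of drug minus saline over time passed for none of the 12 probes with ketamine, memantine or PCP, nor did that of saline minus naive (limma F-tests, 0, 1, 2 and 0 probes at an unadjusted p under 0.05), with the smallest adjusted p of a main probe at 0.718 for Nptx2 with memantine. Over all probes 0.00226% passed with memantine and 0 with ketamine, PCP and saline. At an unadjusted p under 0.05 there were 5.71% with ketamine, 7.97% with memantine, 6.16% with PCP and 5.64% with saline.

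In the order of the 20 group means, no neighbouring pair of Arc differed by more than the larger of its SDs. The order ran from PCP 1 h (10.14 ± 0.23), saline 1 h (10.01 ± 0.55), memantine 1 h (10.01 ± 0.02) and naive 1 h (9.94 ± 0.40) at the top to ketamine 4 h (9.11 ± 0.27), naive 4 h (9.06 ± 0.07) and PCP 2 h (8.78 ± 0.32) at the bottom (SD, n = 3 arrays each). For Npas4, 2 of the 19 neighbouring pairs differed by more than the larger of their SDs. These were PCP 2 h (7.56 ± 0.26) below saline 8 h (8.00 ± 0.13), and ketamine 1 h (8.57 ± 0.19) below memantine 1 h (8.82 ± 0.17). For Nr4a2 the means ran from 7.96 (saline 8 h) to 8.55 (PCP 4 h), and for Nptx2 from 8.85 (PCP 2 h) to 9.78 (saline 4 h), with no neighbours further apart than their SD. The group means of the probes near background ranged from 6.03 to 6.67 for Nr4a1, 6.47 to 7.27 for Nr4a3, 6.35 to 7.23 for Btg2 and 6.32 to 7.15 for Ier2, again with no such pair.

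Nptx2 had its highest group mean in saline arrays at 4 h. Its signals at 4 h were 9.23, 9.36 and 8.94 in ketamine arrays, 9.27, 9.56 and 8.32 in memantine arrays, 9.56, 9.41 and 8.64 in PCP arrays, 10.50, 9.18 and 9.65 in saline arrays, and 9.04, 9.18 and 9.24 in naive arrays. Saline replicate 1, at 10.50, was the highest of the 60 arrays, and the other 4 groups lay between 8.32 and 9.56. Memantine minus saline at 4 h was -0.73 (SE 0.29, adjusted p 0.211), ketamine minus saline was -0.60 (SE 0.29, adjusted p 0.469) and PCP minus saline was -0.57 (SE 0.29, adjusted p 0.481). Saline minus naive at 4 h was 0.63 (SE 0.29, adjusted p 0.379). Without the 3 saline arrays of lowest correlation, which leaves saline 4 h replicate 2 alone at that time, the differences were -0.13 for memantine, -0.01 for ketamine, 0.02 for PCP and 0.03 for saline minus naive, with the lone array assumed to vary like the other groups. On the same BeadChip as saline replicate 1, PCP minus saline was -1.86, and on that of saline replicate 3 ketamine minus saline was -0.42.

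The group means of Nr4a2 lay within 0.59 of each other. At 2 h its signals were 8.13, 8.92 and 8.43 in ketamine arrays, 8.19, 8.08 and 8.20 in memantine arrays, 8.97, 7.94 and 7.69 in PCP arrays, 8.13, 8.77 and 8.15 in saline arrays, and 7.92, 8.31 and 8.49 in naive arrays. At 4 h they were 8.53, 8.50 and 8.30 in ketamine arrays, 8.46, 8.32 and 7.40 in memantine arrays, 8.82, 8.65 and 8.17 in PCP arrays, 7.88, 8.11 and 8.93 in saline arrays, and 8.54, 8.44 and 7.68 in naive arrays. Each of these groups overlapped saline, and of these groups the widest spread was in PCP arrays at 2 h and memantine arrays at 4 h, where a single array stood apart from the other two. Nr4a2 minus saline ran from -0.25 (memantine at 4 h) to 0.48 (memantine at 8 h), each with SE 0.31.

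The probes near background held values with an unadjusted p under 0.05 at 1 and 2 h, none of which passed. For Ier2 the 1 h signals were 6.95, 6.90 and 6.81 in ketamine arrays, 6.47, 6.19 and 6.74 in memantine arrays, 7.68, 6.96 and 6.79 in PCP arrays, 6.42, 6.38 and 6.87 in saline arrays, and 7.05, 6.94 and 7.28 in naive arrays. PCP minus saline was 0.59 (SE 0.25, adjusted p 1), or 0.74 without saline replicate 3 and the other 2 saline arrays of low correlation, and memantine minus PCP was -0.68 (SE 0.25, adjusted p 1). For Btg2 the 2 h signals were 6.46, 7.02 and 6.50 in ketamine arrays, 6.90, 6.32 and 6.45 in memantine arrays, 6.61, 6.99 and 6.05 in PCP arrays, 6.56, 7.13 and 7.99 in saline arrays, and 6.07, 6.92 and 6.54 in naive arrays. The saline arrays held the highest value of this gene on any array, 7.99, and memantine minus saline was -0.67 (SE 0.31, adjusted p 1) and PCP minus saline -0.67 (SE 0.31, adjusted p 0.955), while with naive controls the signs turned (0.0472 for memantine and 0.0417 for PCP). For Nr4a1 the drug minus saline differences ran from -0.52 to 0.12, and for the main Nr4a3 probe from -0.45 to 0.28. The third Nr4a3 probe gave -0.77 for memantine minus saline at 1 h (SE 0.27, adjusted p 0.881), where the main probe gave -0.36 (SE 0.34).

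The effect of the injection itself was read from saline against naive arrays. None of the 12 probes passed at any time or on average (limma, 5 of 60 tests at an unadjusted p under 0.05, 8.33%; over all probes 0.0493% of the tests passed, 0.244% at 4 h and 0.00226% on average over the times, and 6.67% reached that level). On average over the 4 times saline minus naive was -0.10 (95% interval -0.38 to 0.18) for Arc, -0.09 (-0.37 to 0.20) for Npas4, -0.03 (-0.34 to 0.28) for Nr4a2 and 0.06 (-0.24 to 0.35) for Nptx2. Among the dim probes Btg2 gave 0.35 (SE 0.15, adjusted p 0.510) and Ier2 gave -0.53 at 1 h (SE 0.25, adjusted p 1).

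Arc and Npas4 varied together over the 60 arrays (r = 0.64, and 0.43 after the group means were removed). All correlations here are descriptions over 60 arrays, which share normalisation, BeadChips and dissection. Arc was most like Junb (r = 0.78), Egr2 (0.69) and Dusp1 (0.65), an AP-1 subunit, a zinc finger transcription factor and a MAP kinase phosphatase, and 4 probes in all had r above 0.6 with it. Npas4 was most like Dusp1 (0.59), Junb (0.55) and Nin (0.52). The Dusp1 promoter window is shown because Dusp1 headed that list, at chr17:26508598-26508673, minus strand, and it held the palindrome and 1 further core.
Dusp1: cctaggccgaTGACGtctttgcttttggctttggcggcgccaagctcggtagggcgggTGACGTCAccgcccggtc
Nr4a2 was most like Nwd2 (0.76), Cnih3 (0.74) and Fezf2 (0.74), the last a transcription factor of deep cortical projection neurons, and Nptx2 was most like Src (0.73), Ankrd40 (0.70) and Fbxo31 (0.69). Over 0.6 there were 47 such probes with Nr4a2 and 38 with Nptx2. For Nr4a1, Nr4a3, Btg2 and Ier2 no such probe reached 0.6, with the highest r between 0.49 and 0.52.

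The other rapid activity genes were a list of 35, measured for 34. The list was drawn up from general knowledge with earlier results of these data known, so its counts are a description and no independent support. These genes varied along with Arc over the arrays. Their score was the mean of the genes' log2 values relative to naive arrays. It correlated with Arc at 0.70 and with the main Npas4 probe at 0.66. The second Npas4 probe gave 0.08. The other main probes gave 0.30 for Nr4a2, 0.16 for Nptx2, 0.05 for Nr4a3, 0.02 for Btg2, -0.04 for Ier2 and -0.21 for Nr4a1. After the group means were removed the values were 0.62 for Arc, 0.59 and 0.13 for the Npas4 probes, and 0.51 for Nr4a2. They were 0.37 for Nptx2, -0.03 for Nr4a3, 0.15 for Btg2, -0.18 for Ier2 and -0.37 for Nr4a1. Between 1 h and the later times, 8 of the 34 passed the test and all 8 were higher at 1 h, with a median of 0.16 over the list against 0.00 over all probes, of which 0.0633% passed. Under median scaling 2 passed, both higher at 1 h, and the median was 0.12. The 3 with the largest changes were Egr2 (1.00, SE 0.09), Fos (0.90, SE 0.09) and Egr4 (0.62, SE 0.09), all activity-induced transcription factors, and Egr4 was at an adjusted p of 0.055 under median scaling. Against saline at the single times, 2 of the 408 tests of these genes passed and 56 (13.7%) had an unadjusted p under 0.05, against 0.0678% and 6.71% over all probes. Klf2, a Krüppel-like transcription factor, rose by 1.33 with PCP at 1 h (SE 0.23, adjusted p 0.0404), and Gadd45g, a stress-inducible growth arrest gene, rose by 0.67 with memantine at 4 h (SE 0.17, adjusted p 0.0489), in a comparison where 0.714% of all probes passed. Under median scaling Klf2 gave 1.25 and no longer passed (adjusted p 1), and Gadd45g gave 1.64 (adjusted p 0.00304). Without the 3 saline arrays of lowest correlation neither passed, with 1.22 for Klf2 (adjusted p 0.717) and 0.27 for Gadd45g (adjusted p 0.658). Averaged over the 4 times, 3 of these genes rose with memantine, Klf2 by 0.56 (adjusted p 0.0413), Dusp1 by 0.40 (adjusted p 0.0443) and Gadd45g by 0.47 (adjusted p 0.0103), against 0.0543% of all probes passing. Without the 3 saline arrays these averages were 0.56 for Klf2, 0.31 for Dusp1 and 0.37 for Gadd45g, and none passed (adjusted p 0.175, 0.367 and 0.190). At 1 h the list median was 0.08 with ketamine, 0.17 with memantine and 0.29 with PCP relative to saline, where the median of all probes was 0.00 to 0.01. Dusp1, Per1 and Errfi1 were also in a list of 16 glucocorticoid receptor targets. In that list 9 of 192 tests against saline passed, all of them rises, and 32.8% had an unadjusted p under 0.05. This list was also chosen with earlier results of these data known. It includes Sgk1, Fkbp5, Tsc22d3, Plin4 and Hif3a, which the paper reports as drug-responsive in the study that holds these arrays. Its counts are therefore a description and no independent support. The part of these targets in the values of the rapid activity genes was not tested.

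Of 31 delayed activity genes measured, 1 of 372 tests against saline passed, Rgs2, a regulator of G protein signalling, which rose by 1.26 with memantine at 4 h (SE 0.23, adjusted p 0.00675). It was 1.11 without the 3 saline arrays of lowest correlation and no longer passed (adjusted p 0.0583). In the delayed list 23 tests (6.18%) had an unadjusted p under 0.05. None of the 23 upstream regulators passed in 276 tests (limma, 14 at an unadjusted p under 0.05, 5.07%), and Crtc2, Mef2d and Map2k2 had the smallest p over the drugs (0.0433, 0.0613 and 0.105, unadjusted). None of the 12 relatives of Nptx2, Btg2, Ier2 and Arc did in 144 tests (16 at an unadjusted p under 0.05, 11.1%). Over all probes 0.0678% of these tests passed and 6.71% had an unadjusted p under 0.05. With time over all treatments, 0 of the delayed genes, the upstream regulators and the relatives passed (limma F-test, 7, 4 and 0 at an unadjusted p under 0.05), against 0.156% of all probes passing and 5.45% at that level.

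Nr4a2 and the main Nptx2 probe varied along with markers of cortical neurons, which border the dissected striatum. Within groups Arc and the main Npas4 probe did so as well. Over the 60 arrays the score of the 15 cortical markers, from which both genes had been left out, correlated with Nr4a2 at 0.69 and with Nptx2 at 0.49, and with Npas4 at 0.34 and Arc at 0.25. After the group means were removed the values were 0.75 for Nr4a2, 0.48 for Nptx2, 0.47 for Npas4 and 0.54 for Arc. For the second probes the values before and after removal were 0.19 and 0.07 for Nptx2, and 0.18 and 0.27 for Npas4. The score of striatal projection neuron markers correlated with Nr4a2 at -0.30 and with Nptx2 at 0.13. The cortical score ranged from -0.53 to 0.30 in memantine 4 h arrays, from -0.40 to 0.26 in PCP 2 h arrays, from -0.21 to 0.13 in memantine 2 h arrays and from -0.07 to 0.58 in saline 4 h arrays. Saline 4 h replicate 1, which had the high Nptx2 value, had a cortical score of -0.07. In RNA of bulk tissue, fewer cells of a type and less RNA per cell cannot be told apart, and the part of cortical tissue in these values was not tested.

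**Figure D4:**
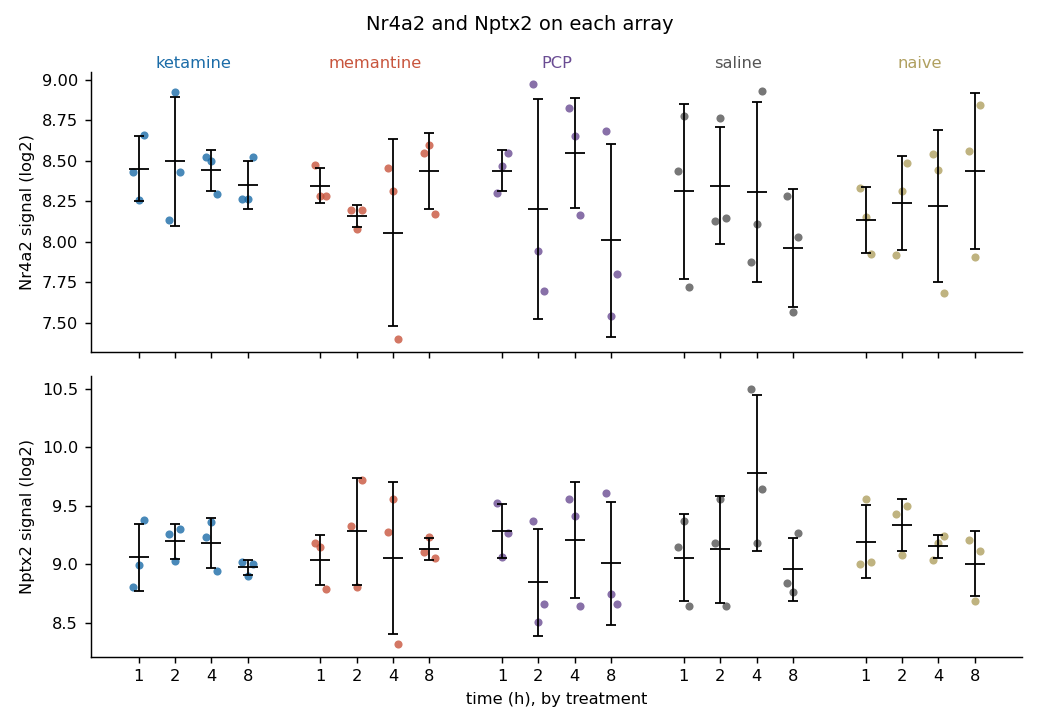
Normalised log2 signal of Nr4a2 (upper panel) and the main Nptx2 probe (lower panel) on each array (points), with group mean and SD as bars, by treatment and by time in h along the horizontal axis. Saline arrays at 4 h have the highest group mean of Nptx2 (9.78) with 1 array at 10.50, and the Nr4a2 means stay between 7.96 and 8.55.

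**Figure D5:**
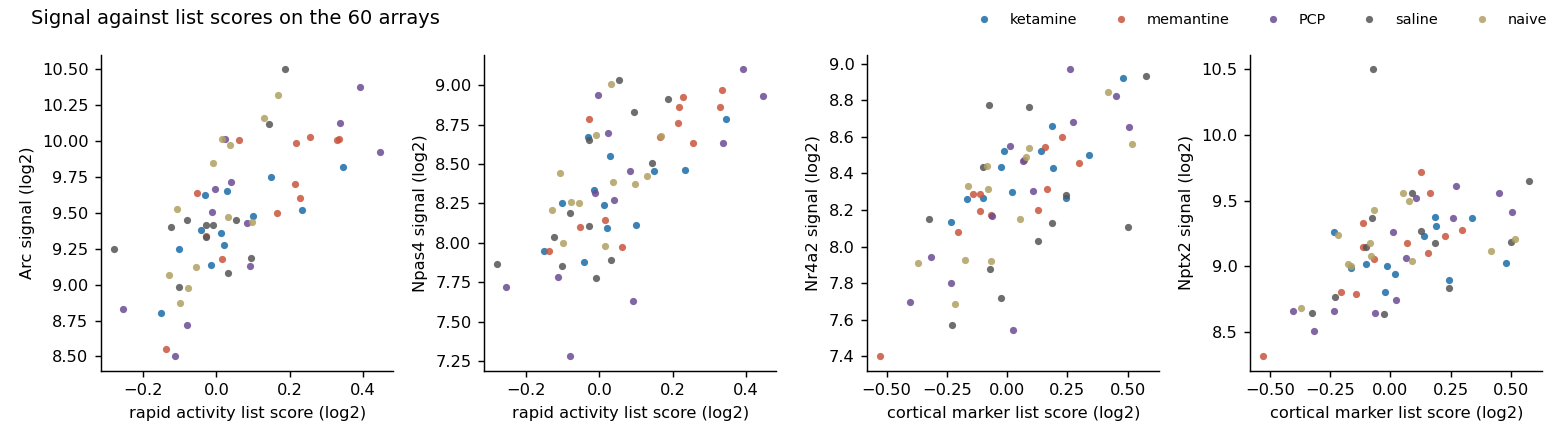
Signal (log2, vertical axes) of Arc and Npas4 against the score of the other rapid activity genes, and of Nr4a2 and Nptx2 against the score of cortical neuron markers (log2 relative to naive arrays, horizontal axes), 1 point per array and 1 colour per treatment. The points rise together, with r = 0.70 for Arc, 0.66 for the main Npas4 probe, 0.69 for Nr4a2 and 0.49 for the main Nptx2 probe.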

How the data were processed

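RNA of mouse striatum from 60 arrays (20 groups of 3, Illumina MouseWG-6 v2) was analysed. The authors deposited a table of linear intensity values per probe, exported without normalisation, with no detection p and no control probes. They also deposited log2 values that, per their methods, had been background-subtracted, quantile-normalised and log2-transformed with the beadarray package. Groups and replicate numbers came from the labels. The BeadChip numbers run in blocks of 6 arrays along the sample order, and the sample titles and source names do not give them.

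Intensities were corrected by the normexp model (offset 50), quantile-normalised and log2-transformed with limma 3.58.1 (R 4.3.3). A probe was kept where 3 or more arrays had it above their own 25th percentile (44236 of 45281). One model with 20 group means was fitted by lmFit and eBayes to all 60 arrays, and p were adjusted by Benjamini-Hochberg over all probes kept. The calculation was tested on simulated data with known log2 changes. In memantine minus saline at 2 h it recovered 0 of 50 changes of 0.5 and 18 of 50 changes of 1. Of the changes of 1.5 and 2 it recovered 44 and 48 of 50. The test of time over all treatments recovered 35 of 50 changes of 0.5. Changes of about 0.5 at a single time would thus mostly have been missed. Symbols came from the platform annotation (34885 probes with 1 symbol, 18 with several, 10378 with none). Coordinates and promoters came from RefSeq (GRCm38.p6). Figures used matplotlib 3.10.9 in Python 3.11.15.

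All probes of the 8 genes were named. The main probe of a gene was the one with the highest mean signal. For each main probe the 3 genes with the highest Pearson r over the arrays were named, and from the lists up to 3 called genes or, where none passed, the 3 with the smallest p over the drugs. The genes and lists were chosen with earlier results of these data known. Added after seeing the data were the tests of time over all treatments, of time within each drug and of treatment by time, the level of the receptor probes, and the list genes under other scalings or without 3 saline arrays. Replicates were described as separate pools of mice. Same-numbered arrays were not paired by the design (36 pairs, correlation of deviations -0.24 to 0.15, above 0.1 in 2).

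The alternatives were the authors' log2 values, no background correction (offset 16), median scaling, fits without the filter or with it required on all 60 arrays, fits with BeadChip or replicate number as a block, a trended robust variance, naive or pooled saline and naive arrays as control, only drug and saline arrays, leaving out 3 saline arrays or each array in turn, and each gene's other probes.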

Additional observations from a re-analysis of the deposited data

How the results depend on the processing

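The counts of probes passing, 0 of 12 for drug minus saline, the drug averages, saline minus naive, drug against drug, time in naive arrays, time in saline arrays and drug by time, were 0 under every alternative that was run and in all 60 fits without a single array (0 to 0). With the replicate number as a block, which the labels do not establish as a pairing, these counts were also 0 and the count for time over all treatments was 1. That count was 1 without any single array (1 to 1) and under the other alternatives, except that it was 0 under median scaling. There the Arc difference between 1 h and later times was 0.51 with an adjusted p of 0.260. Over the other settings the adjusted p of the Arc F-test ran from 0.000726 to 0.017, and without single arrays from 0.000786 to 0.0192 with differences of 0.54 to 0.65. Of the other rapid activity genes, 8 passed between 1 h and later times and 2 under median scaling. Some differences that had not passed changed sign. Under median scaling Nptx2 was 0.0912 for memantine minus saline at 4 h. With naive controls Nptx2 was 0.0274 for ketamine at 4 h, and Btg2 was 0.0472 for memantine and 0.0417 for PCP at 2 h. The second Npas4 probe gave 0.58 for PCP minus saline, -0.63 for ketamine minus PCP and -0.41 for memantine minus PCP at 2 h, and -0.0459 for 1 h minus later. Of 96 drug minus saline values of the main probes, 40 changed sign with naive controls, 20 without the 3 saline arrays and 19 under median scaling, where the median of all probes moved to between -0.10 and 0.26 across the 12 comparisons. The filter on all 60 arrays kept 4 of the 8 main probes. Over all probes, the calls in these 12 comparisons numbered 360, and 12 with naive controls, 30 with pooled controls, 72 with only drug and saline arrays, 113 with BeadChip as a block, 548 with trended variance, 716 without background correction, 829 on the authors' values, 1019 under the filter on all arrays and 8972 under median scaling. Leaving out 1 array moved that count by over 1.5 times for 7 arrays, to 690, 103 and 119 without memantine 4 h replicates 1, 2 and 3, to 1563, 2754 and 198 without saline 4 h replicates 1, 2 and 3, and to 541 without PCP 2 h replicate 3, so the background shares given beside the drug comparisons move with these arrays. Dim signal limits what can be said of Nr4a1, Nr4a3, Btg2 and Ier2, and 3 arrays a group leave intervals of at least 0.50 on either side of each drug minus saline value of the main probes.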
